A study of Mus musculus with 12 samples.

Results

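The genes described here are the 10 that encode the core steps of branched chain amino acid catabolism: Bcat2, Bckdha, Bckdhb, Bckdk, Dbt, Ivd, Mccc1, Mccc2, Acad8 and Hibch. They were chosen by name, as rows of the deposited value table annotated with that symbol alone, and all 10 were measured, by 1 row each, among 19937 genes tested. Their expression was measured in white fat of males at 18 weeks of age, either wild type (WT) or knocked out (KO) for Ahnak, the gene of a giant scaffold protein. For 12 weeks the animals ate chow or HFD, a high fat diet of 60% fat, 20% carbohydrate and 20% protein. Each genotype on each diet is a group of 3 arrays, which makes 4 groups and 12 arrays. The labels give neither the knockout allele, the strain background nor the fat depot, and they do not say that each array came from a separate animal, so the spread behind each p-value may be technical.

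Leucine, isoleucine and valine are broken down in mitochondria along a shared start and separate ends. Bcat2 encodes the mitochondrial aminotransferase that turns each of them into its ketoacid, a reversible step. The branched chain ketoacid dehydrogenase complex then commits the ketoacid to breakdown: Bckdha and Bckdhb encode the alpha and beta subunits of its decarboxylase, Dbt its transacylase core, and Bckdk the kinase that inactivates it by phosphorylation. Ivd, Mccc1 and Mccc2 serve the leucine branch, as isovaleryl-CoA dehydrogenase and the alpha and beta subunits of methylcrotonyl-CoA carboxylase. Acad8, isobutyryl-CoA dehydrogenase, and Hibch, hydroxyisobutyryl-CoA hydrolase, serve the valine branch. Adipocytes are known to use this pathway heavily, in part as a source of acetyl-CoA for lipid synthesis.

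The values are log2 intensities of a 1-colour array. They come without detection calls, so no gene can be called absent or present, and levels are compared between samples of 1 gene only. A change is given as the first group's mean log2 value minus the second's, ± its standard error (SE) from limma fitted to the 12 arrays together. The threshold was 0.05 for the p-value after Benjamini-Hochberg adjustment across the 19937 genes. Arrays of 1 group correlated across genes at r = 0.985 to 0.996, where genes are not independent replicates. Ahnak, the targeted gene, lay at 9.94 to 10.08 in WT and 9.27 to 9.42 in KO on chow, and at 9.68 to 10.27 in WT and 9.40 to 9.58 in KO on HFD. It was lower on each KO array than on any WT array of the same diet. The sources used here do not say whether its row reads the deleted stretch.

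Sequence upstream of the genes is shown for the member that stood apart from the others, Bckdhb, for its partner subunit Bckdha, and for Ivd, the member that followed the shared pattern most closely. Motifs were searched in the 250 bases before the start used in a promoter table made from RefSeq on build GRCm38.p6. For these 3 genes that start lies inside the outermost boundary RefSeq gives the gene, by 26 bases for Bckdhb, 21 for Bckdha and 35 for Ivd, and the sequences shown stop at that boundary. They are written 5′ to 3′ on the gene's own strand, in lower case with matches to the motifs in capitals. Bckdhb is shown for chr9:83924887-83925110 on the plus strand, Bckdha for chr7:25658783-25659011 on the minus strand, and Ivd for chr2:118861744-118861958 on the plus strand.
Bckdhb: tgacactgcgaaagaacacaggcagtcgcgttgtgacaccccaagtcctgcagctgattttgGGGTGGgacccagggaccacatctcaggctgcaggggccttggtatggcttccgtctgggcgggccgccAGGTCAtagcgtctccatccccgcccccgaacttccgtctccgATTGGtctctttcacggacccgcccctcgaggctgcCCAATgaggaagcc
Bckdha: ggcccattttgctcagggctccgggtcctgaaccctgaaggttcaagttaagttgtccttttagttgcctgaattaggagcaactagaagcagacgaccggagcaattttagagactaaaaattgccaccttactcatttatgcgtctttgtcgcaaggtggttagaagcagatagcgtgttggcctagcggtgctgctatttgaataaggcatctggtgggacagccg
Ivd: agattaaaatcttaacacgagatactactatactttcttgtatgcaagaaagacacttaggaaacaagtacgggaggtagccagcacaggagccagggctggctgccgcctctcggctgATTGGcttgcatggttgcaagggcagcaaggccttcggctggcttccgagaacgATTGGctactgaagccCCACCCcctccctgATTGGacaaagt
Of the 10 members, 9 have a window in that table, and 27025 genes do in all. The window of Bcat2, chr7:45569903-45570152, lies wholly inside the outermost boundary of that gene, which begins at 45568967. The motif CCAAT, searched on both strands like the rest, was in 6 of the 9 windows and in 34.5% of all windows; it occurs 4 times for Ivd, 3 of them in the stretch shown, and 2 times for Bckdhb. CCACCC, a letter string of KLF sites, was in 4 of 9 (27.6% of all), for Bckdhb, Ivd, Mccc1 and Acad8. AGGTCA, the core of nuclear receptor elements, was found for Bckdhb alone (13.8% of all), and CACGTG, the E-box, for Mccc2 alone (6.04% of all). AAGGTCA, which contains AGGTCA, was in none of the 9 (4.04% of all). These are letter matches in a short window and say nothing of whether a factor binds there.

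On chow the 10 genes did not separate the genotypes. None passed for KO against WT, where limma called 0% of all genes, and 0 of the 10 had an unadjusted p under 0.05 (5.6% of all genes did). Their differences ran from -0.07 for Dbt to 0.17 for Bckdk, with a median of 0.07 (0.01 over all genes). The 95% intervals, not adjusted for the number of genes, all held 0 and reached at most 0.58 upward, for Ivd, and -0.46 downward, for Dbt. Changes of up to about that size are therefore not excluded by this fit. Its intervals pool the spread of all 4 groups, and 9 of the 10 genes varied most among the WT arrays on HFD. For Ivd the standard deviation was 0.64 among those arrays, against 0.14 for the WT chow group and 0.07 for the KO chow group. These limits, and the count of 0 with an unadjusted p under 0.05, thus rest partly on HFD arrays. Intervals from the chow arrays alone are not given here. Bckdha was the 1 member whose arrays did not overlap, at 10.81 to 10.85 in WT and 10.94 to 10.97 in KO, and its difference of 0.13 ± 0.13 did not pass (adjusted p = 0.98). That SE draws mostly on other arrays: the standard deviation of Bckdha was 0.02 in each chow group and 0.32 in WT on HFD. With the chow arrays alone in the fit, no gene passed either. Of all genes, 5.79% were higher and 5.74% lower on each KO array than on each WT array.

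On HFD each of the 10 genes was higher in KO than in WT: all 10 passed and the 3 KO arrays lay above the 3 WT arrays for each. The median difference was 0.71, against 0.02 over all genes. Of all genes 13.5% were called in this comparison, 6.65% higher and 6.85% lower, and 17.4% had KO arrays that all lay above the WT arrays. When each array was centred on 13 adipocyte markers, 4 of the 10 were still called higher, and Bckdk turned to -0.03. With that centring the median of all genes moved to -0.40, and the calls over all genes went from 1325 higher and 1366 lower to 192 higher and 10890 lower.

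**Figure D1:**
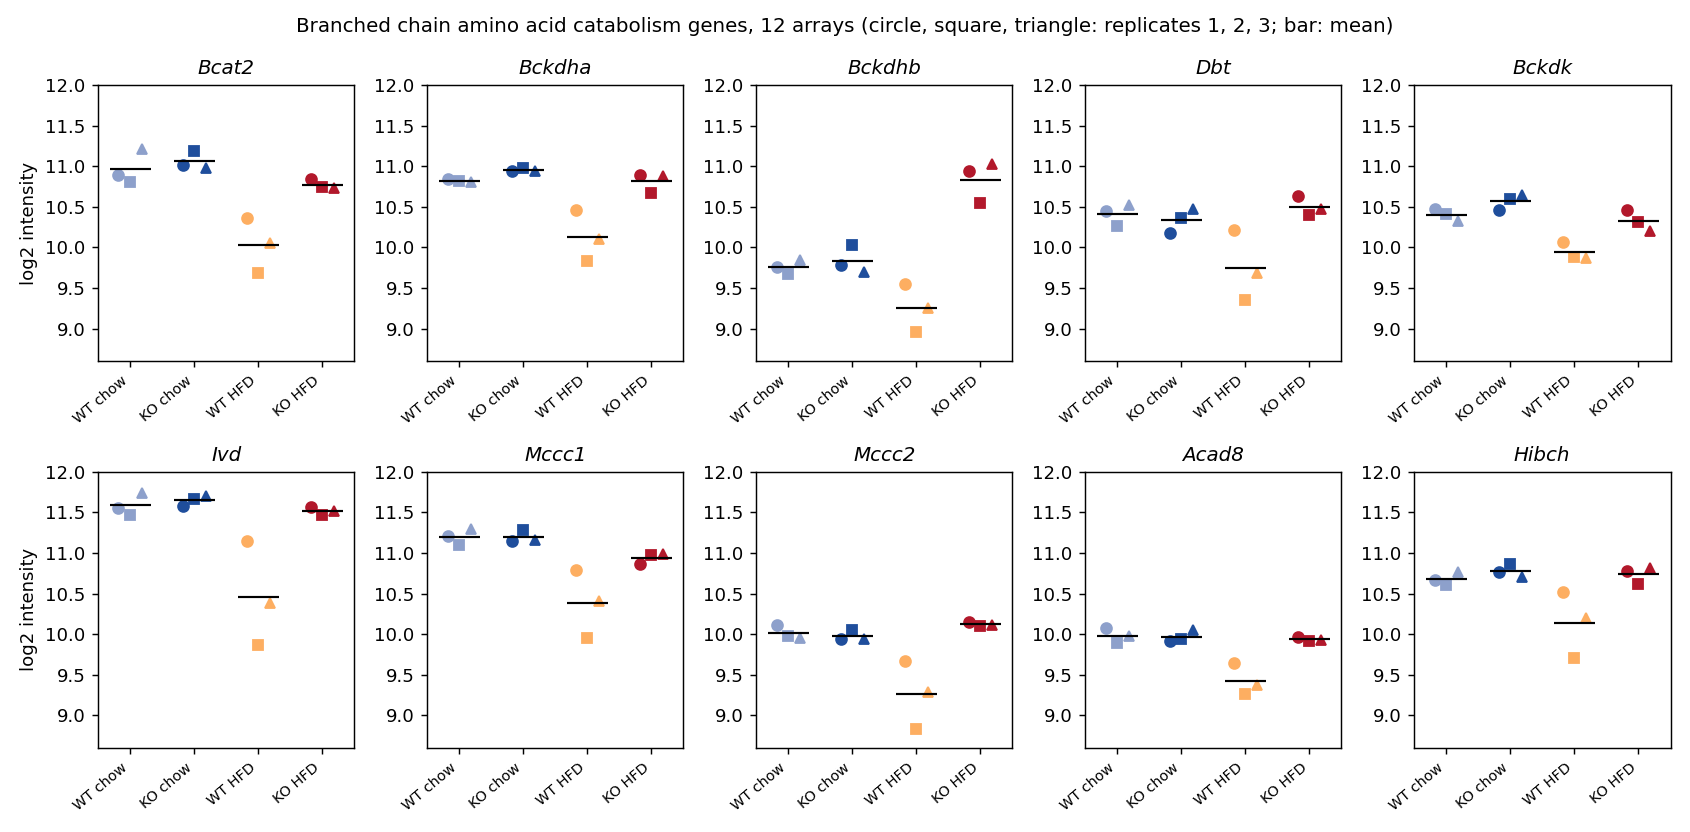
Log2 intensity (vertical axis) of the 10 genes on each of the 12 arrays, by group; the symbols mark replicates 1, 2 and 3 and the bar the mean of 3 arrays. For all 10 genes the KO arrays on HFD lay above the WT arrays on HFD, and for Bckdhb they also lay above the 6 chow arrays (10.54 to 11.02 against 9.67 to 10.03).

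Bckdhb differed most between the genotypes on HFD. On HFD replicates 1, 2 and 3 it lay at 9.55, 8.96 and 9.25 in WT and at 10.94, 10.54 and 11.02 in KO. On chow the 6 arrays of both genotypes lay between 9.67 and 10.03, so the KO arrays on HFD stood above every chow array and the WT arrays on HFD below every one. The KO against WT difference on HFD was 1.58 ± 0.16 (2.99-fold, adjusted p = 0.0032), which ranked 4 by p among the 19937 genes and 17 by size among increases.

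The other subunits of the complex and its kinase moved the same way by less. Bckdha lay at 10.46, 9.83 and 10.11 in WT and at 10.89, 10.67 and 10.87 in KO on HFD. The KO arrays were near the chow arrays of both genotypes, which spanned 10.81 to 10.97. The difference was 0.68 ± 0.13 (1.61-fold, adjusted p = 0.0086). Dbt, the transacylase core, had 10.21, 9.35 and 9.68 in WT and 10.64, 10.39 and 10.47 in KO, a difference of 0.75 ± 0.18 (adjusted p = 0.020). Its KO arrays fell within or just above the chow range of 10.18 to 10.52. Bckdk had the smallest difference of the 10, 0.38 ± 0.09 (1.3-fold, adjusted p = 0.018), with WT arrays at 9.86 to 10.07 and KO arrays at 10.20 to 10.45. This kinase restrains the complex, so the genes that rose hold both catalytic subunits and an inhibitor.

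Upstream of the complex, Bcat2 lay at 10.36, 9.68 and 10.05 in WT and at 10.84, 10.74 and 10.73 in KO on HFD. Its difference was 0.74 ± 0.15 (1.67-fold, adjusted p = 0.012). The chow arrays lay at 10.80 to 11.21 in WT and 10.98 to 11.18 in KO. The KO arrays on HFD were thus above the WT arrays on HFD and at or below the lower end of the chow values.

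In the leucine branch Ivd, whose product oxidizes isovaleryl-CoA, showed the second largest difference. It lay at 11.14, 9.86 and 10.38 in WT and at 11.56, 11.46 and 11.52 in KO on HFD, with all chow arrays at 11.46 to 11.74. The WT arrays on HFD were spread over more than 1 log2 unit while the other 9 arrays lay close together. The difference was 1.05 ± 0.24 (2.07-fold, adjusted p = 0.016). The carboxylase subunits differed by 0.86 ± 0.16 for Mccc2 (adjusted p = 0.0082) and by 0.56 ± 0.16 for Mccc1 (adjusted p = 0.043). Mccc2 lay at 8.83 to 9.66 in WT and 10.10 to 10.15 in KO on HFD, and Mccc1 at 9.95 to 10.79 and 10.86 to 10.99. The lowest KO value of Mccc1 was thus close to the highest WT value. All chow arrays of Mccc1 lay above both, at 11.10 to 11.30.

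In the valine branch Acad8 rose by 0.51 ± 0.09 (1.42-fold, adjusted p = 0.0082) and Hibch by 0.60 ± 0.16 (1.51-fold, adjusted p = 0.032). On HFD Acad8 spanned 9.26 to 9.64 in WT and 9.92 to 9.97 in KO, and Hibch 9.71 to 10.52 in WT and 10.61 to 10.82 in KO. For both genes the KO arrays on HFD lay at the level of the chow arrays (9.89 to 10.07 for Acad8 and 10.60 to 10.87 for Hibch).

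The calls on HFD depended on fitting all 4 groups together and on single arrays. When the fit held the 6 compared arrays alone, none of the 10 passed, with adjusted p of 0.054 for Bckdhb to 0.15 for Mccc1 and the same differences, and 4 genes passed in all. Leaving out KO HFD replicate 1 brought the count of 10 to 4. It was 5 when WT HFD replicate 3 was left out, and 6 when either WT HFD replicate 2 or KO HFD replicate 3 was. In the same fits the calls over all genes also fell, from 13.5% to 4.53% for the fit lacking KO HFD replicate 1 and 6.32% for that lacking KO HFD replicate 3, and to 4.8% and 6.3% for those lacking WT HFD replicates 3 and 2. Bckdhb, Mccc2, Bckdha and Acad8 were the 4 that passed without KO HFD replicate 1 (adjusted p of 0.020 to 0.042). All 10 differences stayed positive in every fit that left out 1 array.

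**Figure D2:**
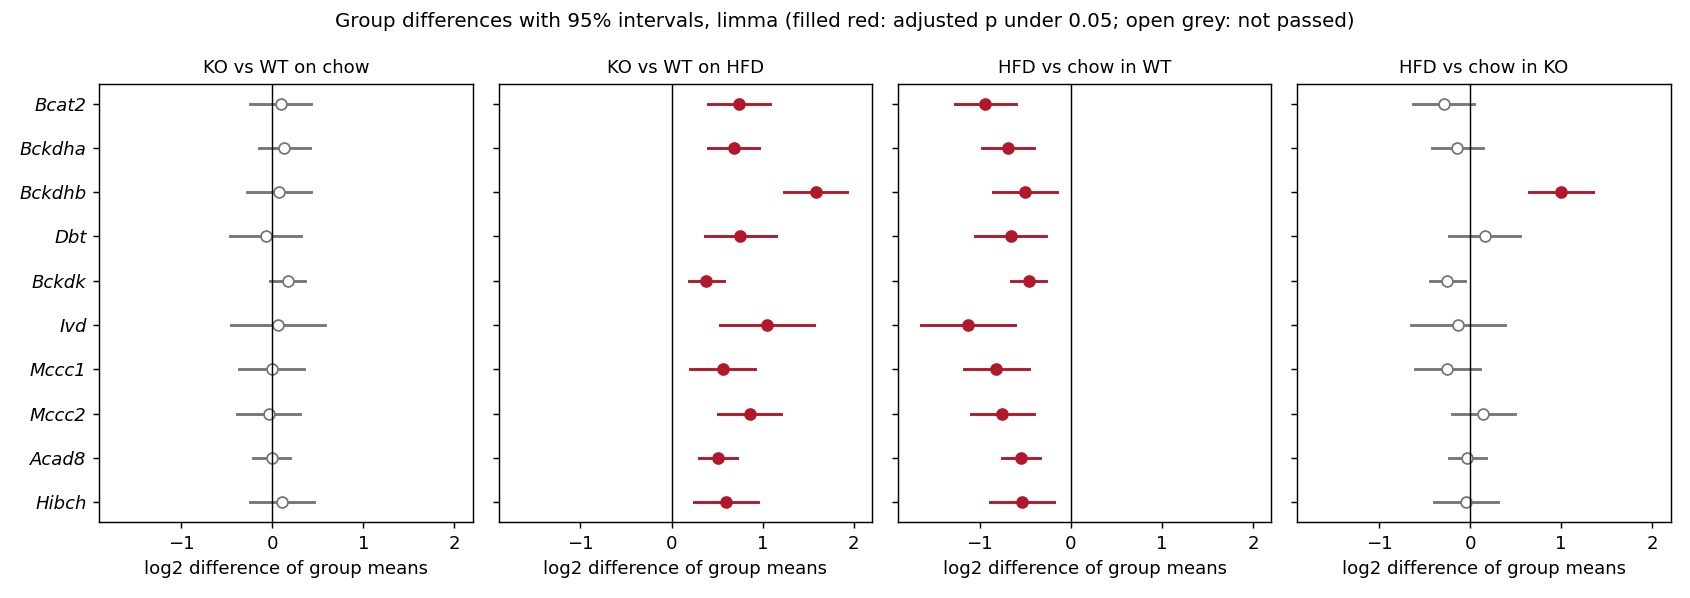
Differences between group means in log2 units (horizontal axis) with 95% intervals for the 10 genes, in 4 comparisons; filled red points passed at an adjusted p under 0.05. All 10 were higher in KO than in WT on HFD and lower on HFD than on chow in WT, while Bckdhb alone passed for diet in KO; Bckdk turned to -0.03 for KO against WT on HFD when arrays were centred on adipocyte markers.

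In WT the HFD lowered all 10 genes. Each of them passed for HFD against chow in WT and lay lower on all 3 HFD arrays than on all 3 chow arrays, where limma called 24.1% of all genes, 12.3% lower and 11.8% higher, and 21.6% were lower without overlap. The median was -0.68 (-0.03 over all genes). Ivd fell by 1.12 ± 0.24 (adjusted p = 0.0063), Bcat2 by 0.94 ± 0.15 (0.0023), Mccc1 by 0.82 ± 0.16 (0.0050) and Mccc2 by 0.75 ± 0.16 (0.0064). Bckdha fell by 0.69 ± 0.13 (0.0038), Dbt by 0.66 ± 0.18 (0.020), Acad8 by 0.55 ± 0.09 (0.0027) and Hibch by 0.54 ± 0.16 (0.031). Bckdhb fell by 0.50 ± 0.16 (0.041) and Bckdk by 0.46 ± 0.09 (0.0042). This comparison uses the same 3 WT arrays on HFD as that of the genotypes on HFD, so the size of the fall and of the genotype difference are not independent. Centred on the adipocyte markers, all 10 differences stayed negative and 5 passed, while the calls over all genes went from 2345 higher and 2457 lower to 5650 higher and 570 lower.

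In KO the diet left 9 of the 10 without a call and raised 1. Bckdhb rose by 1.0 ± 0.16 (2-fold, adjusted p = 0.012), where 6.34% of all genes were called, 2.8% higher and 3.54% lower. The other 9 had differences from -0.29 ± 0.15 for Bcat2 (adjusted p = 0.29) to 0.16 ± 0.18 for Dbt (adjusted p = 0.65). Of them Bckdk had an unadjusted p of 0.0161 (-0.25 ± 0.09, adjusted p = 0.12), and 22.8% of all genes had one under 0.05. On the arrays themselves 5 of these 9 were lower on HFD without overlap and 1, Mccc2, was higher, against 13.7% and 15.1% of all genes. The call of Bckdhb was lost without KO HFD replicate 3 (0.91, adjusted p = 0.068) or without KO chow replicate 1 (0.97, adjusted p = 0.051), where calls over all genes were 0.311% and 0.702%.

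Whether the genotype difference itself changed with diet was tested as an interaction. All 10 interactions were positive, from 0.21 ± 0.13 for Bckdk to 1.502 ± 0.23 for Bckdhb, with a median of 0.61 (0.01 over all genes). None passed over all genes. Bckdhb came closest (adjusted p = 0.055), followed by Mccc2 (0.90 ± 0.22, adjusted p = 0.11) and Acad8 (0.52 ± 0.13, adjusted p = 0.11). At an unadjusted p under 0.05 stood 8 of the 10 and 17.5% of all genes, and limma called 0.00502% of all genes, a single one. Without WT HFD replicate 1, 9 of the 10 passed, and calls over all genes went from 1 to 2060 (10.3%). The data therefore do not settle at this threshold that the genotype differences on the 2 diets are unequal, gene by gene.

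The 3 WT arrays on HFD did not sit together. All 10 genes were highest on replicate 1 of that group, and 9 were lowest on replicate 2; the exception was Bckdk, with 9.88 on replicate 2 and 9.86 on replicate 3. For 9 of the 10 the standard deviation within WT on HFD exceeded that in each other group. It ran from 0.11 to 0.64 there and from 0.02 to 0.26 elsewhere. Relative to the WT chow mean, the average of the 9 members other than Bckdhb was -0.36, -1.08 and -0.74 on WT HFD replicates 1, 2 and 3, and 0.01, -0.10 and -0.05 on those of KO.

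Markers of adipocytes and macrophages moved alongside. The mean log2 value of the 13 measured adipocyte markers was 12.62 to 12.69 in WT and 12.57 to 12.73 in KO on chow. On HFD it was 12.01 to 12.55 in WT and 12.72 to 12.77 in KO. The mean of 15 macrophage markers was 9.28 to 9.73 in WT and 9.001 to 9.31 in KO on chow, and 10.60 to 11.90 in WT and 9.49 to 9.68 in KO on HFD. Within WT on HFD the adipocyte mean was highest on replicate 1 and lowest on replicate 2, as for the 10 genes, and the macrophage mean ran in the reverse order. For KO against WT on HFD all 13 adipocyte markers had positive differences, as had 10825 of all 19937 genes. Their median was 0.43 (0.02 over all genes), and for 10 the KO arrays all lay above the WT arrays (17.4% of all genes). Of the 13, 5 passed as higher (6.65% of all genes), such as Plin1 of the lipid droplet coat (0.52 ± 0.10, adjusted p = 0.0091). The other 8 did not pass, such as Adipoq, which encodes adiponectin (0.43 ± 0.14, adjusted p = 0.065). Of the 15 macrophage markers 14 fell (6.85% of all genes were called lower), with Cd68 at -1.89 ± 0.30 and Itgax at -3.70 ± 0.46. In bulk tissue fewer cells of a type and less RNA per cell cannot be told apart, and the part of these marker shifts in the results for the 10 genes was not tested.

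**Figure D3:**
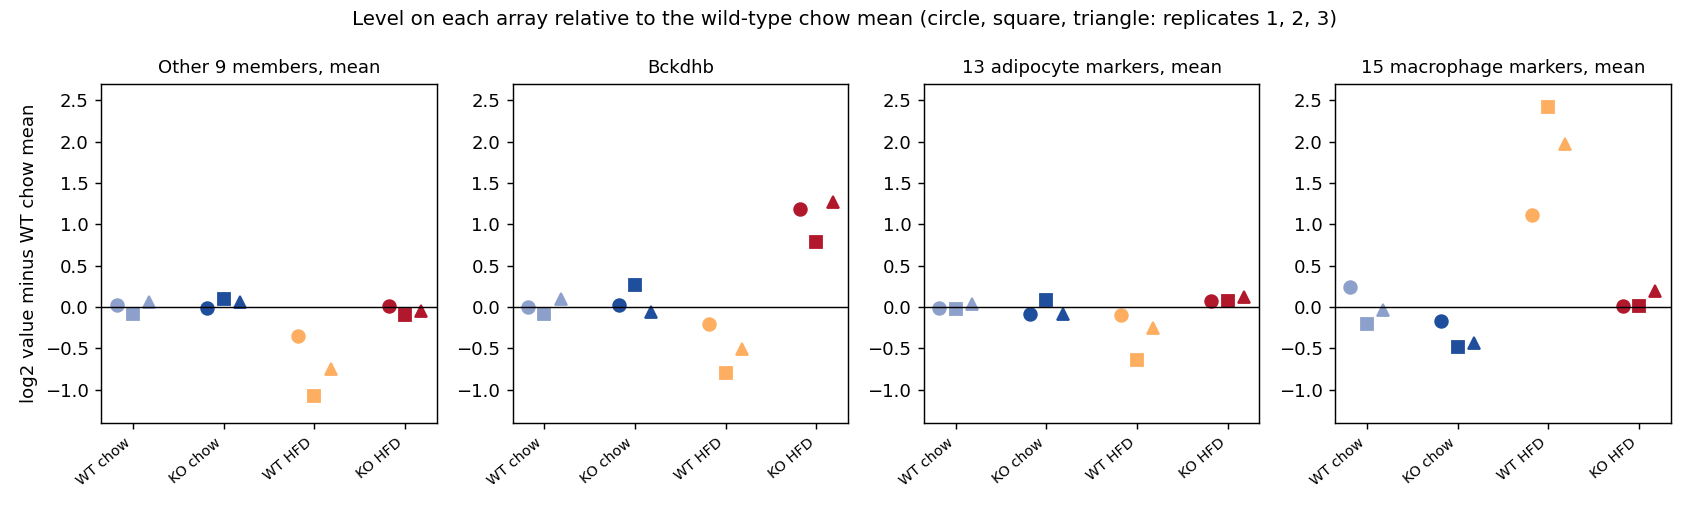
Log2 level on each array minus the WT chow mean (vertical axis) for the average of 9 members, for Bckdhb, and for the averages of 13 adipocyte and 15 macrophage markers; symbols mark replicates 1, 2 and 3. On KO HFD arrays the average of the 9 members lay at -0.10 to 0.01 and Bckdhb at 0.78 to 1.26. The WT HFD arrays spread from -1.08 to -0.36 for the average of the 9 and from 1.11 to 2.41 for the macrophage markers.

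Centring on the adipocyte markers takes the same amount from every gene's difference, so it leaves the order of the members as it was. After it, Bckdhb had a KO against WT difference on HFD of 1.16 (adjusted p = 0.00069), Ivd 0.635 (adjusted p = 0.013), Mccc2 0.44 (adjusted p = 0.015) and Bcat2 0.32 (adjusted p = 0.041). Dbt (0.34, adjusted p = 0.053) and Bckdha (0.27, adjusted p = 0.063) did not pass, nor did Hibch (0.18), Mccc1 (0.14), Acad8 (0.09) and Bckdk (-0.03). These values are changes relative to the markers and do not show which of the 2 sides changed. Calls in the remaining marker lists are given without centring, for KO against WT on HFD, where 13.5% of all genes were called. Lower were 1 of 8 skeletal muscle, 1 of 7 stromal progenitor, 2 of 4 B cell and 1 of 6 brown or beige markers. Of 6 endothelial markers 1 rose, and none of 5 T cell, 5 mesothelial and 5 male tract markers passed. Ucp1, the uncoupling protein of brown fat, lay at 4.40 to 4.61 on 11 arrays and at 5.86 on WT HFD replicate 2.

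Bckdhb departed from the shared pattern on KO HFD arrays. Its level relative to the WT chow mean exceeded the average of the other 9 by 1.17, 0.88 and 1.31 on KO HFD replicates 1, 2 and 3. The same excess was 0.15, 0.28 and 0.24 on WT HFD arrays and between -0.12 and 0.18 on the 6 chow arrays. Bckdhb was singled out here after its values were seen, so this is a description without a test. Across the 12 arrays Bckdhb correlated with the average of the other 9 at r = 0.62, and each of those 9 with its own remaining 9 at 0.84 to 0.99. Among pairs the highest r was 0.98, for Bckdha and Ivd, and the lowest 0.39, for Bckdhb and Bckdk. These coefficients are over 12 arrays in 4 groups, of which WT on HFD lay apart, and so mostly restate that group's level.

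The genes most like the average of the 10 over the 12 arrays, by Pearson's r, were Aldh6a1 and Pccb, which belong to the pathway, Sik2, a salt-inducible kinase, Palm, paralemmin, and Pygb, a glycogen phosphorylase (r = 0.99 for each). Over the 9 arrays without WT on HFD their r was 0.78, 0.49, 0.78, 0.60 and 0.62 in that order, so the likeness rests largely on the WT HFD arrays. Ahnak itself had r = -0.34 over the 12 arrays.

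Beyond the 10, a list of 34 further genes of the pathway covered other enzymes, transporters, and cofactor or electron transfer proteins, and 33 were measured. For KO against WT on HFD 15 rose, 2 fell and 16 did not pass, where 6.65% of all genes were called higher and 6.85% lower. The median of the 33 was 0.18. Centred on the adipocyte markers, 4 were called higher and 14 lower. In that fit 192 of all 19937 genes were called higher and 10890 lower. The uncentred count was 17 calls, where 13.5% of all genes were called. It became 3 when WT HFD replicate 3 was left out (4.8% of all genes), and 2 when KO HFD replicate 1 was (4.53%). It was 9 with WT HFD replicate 2 left out (6.3%), and 10 and 6 for KO HFD replicates 2 (9.96%) and 3 (6.32%). It was 0 when the fit held the 6 compared arrays alone (0.0201%). On chow limma called none of the 33 for KO against WT, and 2 had an unadjusted p under 0.05, as did 5.6% of all genes.

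Among the other enzymes 10 of 16 rose on HFD in KO against WT, where 6.65% of all genes were called higher. Ppm1k, the phosphatase that reactivates the ketoacid dehydrogenase, had 7.60 to 8.26 in WT and 8.43 to 8.67 in KO and rose by 0.66 ± 0.14 (adjusted p = 0.012). The phosphatase and the kinase that oppose each other on the complex thus both lay higher in KO. For the kinase, Bckdk, this did not hold with arrays centred on adipocyte markers (-0.03). Aldh6a1, the dehydrogenase at the end of the valine branch, rose by 0.78 ± 0.18 (adjusted p = 0.016), and its neighbour Hibadh by 0.40 ± 0.11 (0.035). Acadsb, the acyl-CoA dehydrogenase of the isoleucine branch, rose by 0.76 ± 0.19 (0.027), and Hsd17b10 and the thiolase Acat1 of the same branch by 0.505 ± 0.11 (0.012) and 0.54 ± 0.12 (0.015). Pcca and Pccb, the subunits of propionyl-CoA carboxylase, rose by 0.55 ± 0.14 (0.029) and 0.73 ± 0.15 (0.013). Echs1, an enoyl-CoA hydratase, had 0.51 ± 0.12 (0.017) and Auh, the hydratase of the leucine branch, 0.31 ± 0.09 (0.037). Dld, a subunit shared with other ketoacid dehydrogenases, had 0.18 ± 0.08 and did not pass (adjusted p = 0.19).

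Bcat1, the cytosolic aminotransferase, ran opposite to Bcat2. It lay at 7.99, 8.28 and 7.99 in WT and at 7.27, 7.39 and 7.36 in KO on HFD, and at 6.88 to 7.59 on the chow arrays. It fell by 0.75 ± 0.15 for KO against WT on HFD (adjusted p = 0.012) and rose by 0.90 ± 0.15 for HFD against chow in WT (adjusted p = 0.0026). The macrophage markers above stood highest on the same 3 arrays, and their part in the Bcat1 values was not tested.

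Of the 6 transporters, 3 passed for KO against WT on HFD, as did 13.5% of all genes. Slc25a44, the mitochondrial carrier of branched chain amino acids, rose by 0.37 ± 0.10 (adjusted p = 0.030), and in WT it fell by 0.48 ± 0.10 for HFD against chow (adjusted p = 0.0053). Slc43a1, a plasma membrane transporter of large neutral amino acids, lay at 8.56, 7.56 and 7.84 in WT and at 9.71, 9.52 and 9.37 in KO on HFD. It rose by 1.55 ± 0.24 (adjusted p = 0.0056). Its KO arrays also lay above WT on chow, at 9.32 to 9.99 against 8.52 to 8.91, where the difference of 0.97 ± 0.24 did not pass (adjusted p = 0.58). Its relative Slc43a2 went the other way on HFD, at -0.78 ± 0.13 (adjusted p = 0.0069), with WT arrays at 8.05 to 8.71 and KO arrays at 7.53 to 7.67. Slc7a8, another transporter of neutral amino acids, which is named here after its values were seen, rose with HFD in both genotypes, by 1.198 ± 0.12 in WT (adjusted p = 0.00042) and 1.14 ± 0.12 in KO (adjusted p = 0.0019), and had -0.05 ± 0.12 between the genotypes on HFD.

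**Figure D4:**
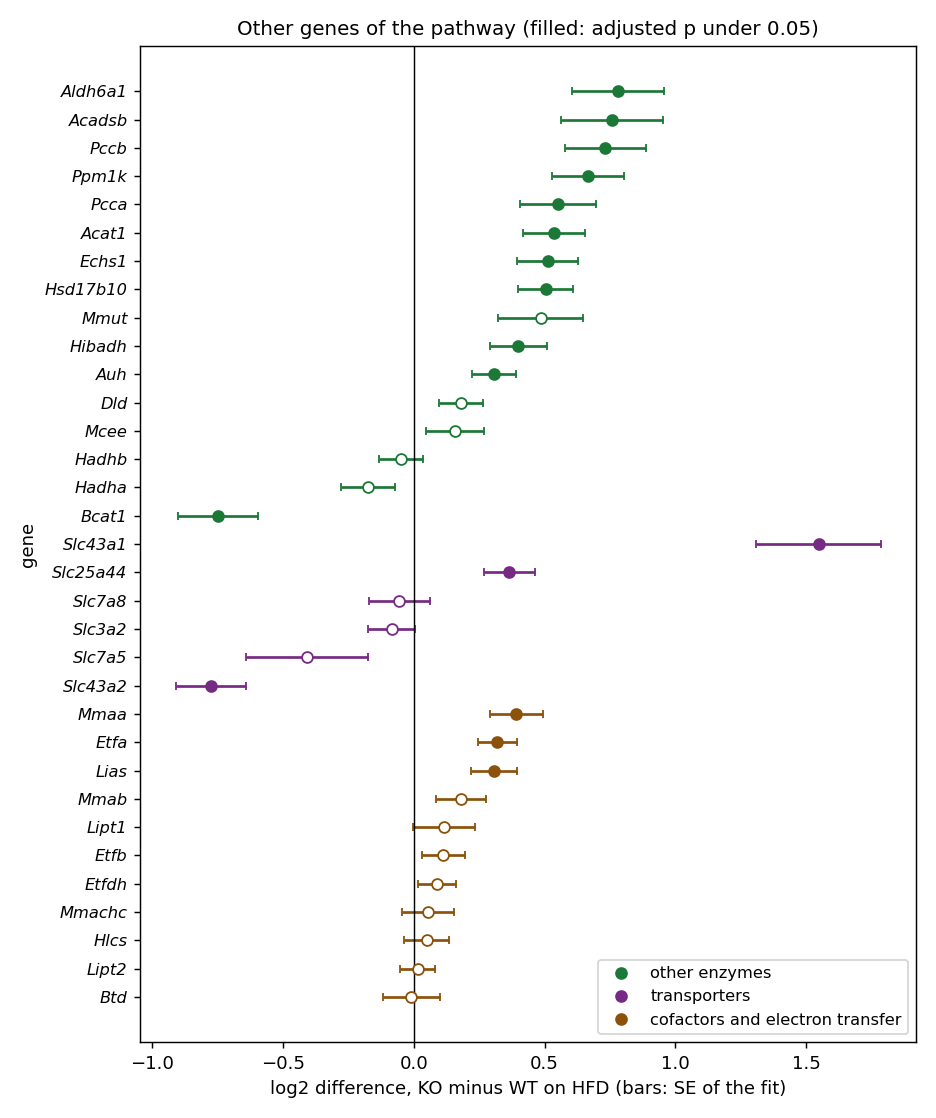
Differences on the log2 scale (horizontal axis, bars are the SE of the fit) for KO against WT on HFD of the 33 other measured pathway genes, in 3 groups by colour; filled points passed at an adjusted p under 0.05. Of the 33 genes 15 rose and 2, Bcat1 and Slc43a2, fell, with Slc43a1 at 1.55. Centred on adipocyte markers 4 were called higher and 14 lower, against 192 higher and 10890 lower of all 19937 genes.

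Cofactor and electron transfer genes moved less, in a comparison where 6.65% of all genes were called higher. Of 11, 3 rose for KO against WT on HFD: Mmaa, which serves the cobalamin of methylmalonyl-CoA mutase (0.39 ± 0.10, adjusted p = 0.028), Etfa, a subunit of the electron transfer flavoprotein that takes electrons from Ivd and Acad8 (0.32 ± 0.08, 0.020), and Lias, the lipoic acid synthase (0.31 ± 0.09, 0.041). The median of the 11 was 0.11, against 0.50 for the 16 other enzymes. For comparison, of 15 TCA cycle genes 7 rose and 8 did not pass, with a median of 0.24, which is below that of the 10 genes of branched chain amino acid catabolism (0.71). No test was made of the difference between these lists.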

How the data were processed

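Per the labels' protocols, total RNA was labelled with biotin for whole-transcript arrays, 1 array per sample. The authors deposited 1 table of log2 values, 34760 rows by 12 columns, from 2.09 to 14.2. The base was inferred from that range, and values are neither centred nor negative. The submitters' processing notes name affy without a version; background correction, summarization and scaling were not given in the sources used here. Array medians lie between 5.78 and 5.92. Of the rows, 21640 have 1 symbol in the platform annotation, 1321 several and 11799 none. For 954 genes with several rows the row with the highest mean stood for the gene.

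A mean per group was fitted to the 12 arrays in limma 3.58.1 under R 4.3.3 (8 residual degrees of freedom, eBayes, two-sided, Benjamini-Hochberg over 19937 genes), without a filter. The script was tested on simulated data. The number of arrays limits the precision. Same-numbered arrays of WT and KO had deviations correlating at -0.01 to 0.11 on HFD and -0.41 to -0.01 on chow. Between the diets they correlated at -0.13 to 0.05 in WT and -0.27 to 0.38 in KO. The arrays were therefore treated as unpaired, but with 3 arrays a group these values cannot exclude a pairing by number.

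The members and lists were chosen with earlier results of these data known. All 10 members are named, with Ahnak, pathway genes that passed on HFD, Bcat1, Dld, Ppm1k, Slc25a44, 5 marker genes, and the 5 named genes most like the members' average. Alternatives were leaving out each array, fitting only the compared groups, a replicate block, array weights, a trended prior, quantile normalization, a filter on dim rows, averaged rows, centring on adipocyte markers, and adjustment over all rows.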

Additional observations from a re-analysis of the deposited data

How the results depend on the processing

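For KO against WT on HFD 10 members passed, and the count was 0 when the fit held the compared groups alone, 4 with arrays centred on adipocyte markers, and 4 to 10 with 1 array left out. With adjustment over all rows it was 8. With the replicate block it was 9, with Mccc1 lost (adjusted p = 0.058). Of all genes 13.5% were called in the main fit, 0.0201% with the compared groups alone, 9.18% over all rows and 11.7% with the block. With centring 192 of all genes were called higher and 10890 lower, and with 1 array left out 4.53% to 19.7% were called. Whether the numbers pair the samples is not known, and the block changed the count of members in no other comparison. For HFD against chow in WT the 10 became 5 with centring, 7 with the compared groups alone and 8 with adjustment over all rows. With 1 array left out it was 7 to 10. Calls over all genes went from 24.1% to 16.9% with the compared groups alone and 19.2% over all rows. They were 15.4% to 26.5% with 1 array left out, and 5650 higher and 570 lower with centring. For HFD against chow in KO the 1 call became 0 to 1 with 1 array left out, where calls over all genes went from 6.34% to between 0.311% and 7.57%. For the interaction the 0 became 8 with array weights, whose estimation stopped before it converged, 1 (Bckdhb) with the filter on dim rows or with centring, and 0 to 9 with 1 array left out. Calls over all genes rose there too, from 1 to 2819 with array weights, 75 with the filter and 48 with centring. With 1 array left out they were 0 to 2060. On chow 0 members passed in any setting. Of the other pathway genes on HFD 17 passed. The count was 0 with the compared groups alone, 11 with adjustment over all rows and 18 (4 higher, 14 lower) with centring. It was 2 to 18 with 1 array left out. The share called higher also turned without WT HFD replicate 3 (1 higher, 2 lower), where 400 of all genes were called higher and 556 lower. Calls over all genes in the other fits are those given above for KO against WT on HFD. A fit of the compared groups alone estimates the spread from fewer arrays, and on HFD without the tighter chow groups. For 9 of the 10 members the standard deviation was largest in WT on HFD, so pooling all 4 groups can understate the spread of the HFD comparison. Which of these lowered the counts, and the cause of the other shifts, was not tested.

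Signs turned with centring for Bckdk on HFD (-0.0339) and in the interaction (-0.23), and on chow for Mccc1 (0.0214) and Acad8 (0.0191). With 1 array left out, uncalled differences on chow crossed 0 for Bckdhb (-0.0188 to 0.15), Dbt (-0.14 to 0.0112), Mccc1 (-0.0578 to 0.0417), Mccc2 (-0.0752 to 0.0091) and Acad8 (-0.0523 to 0.0392), and for diet in KO for Acad8 (-0.0575 to 0.0087) and Hibch (-0.0823 to 0.0187). No member's called difference changed sign except that of Bckdk. Without detection calls, signal over background cannot be given.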
